A study of Mus musculus with 2 samples.

Results

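The genes described here encode scaffold proteins of the cornified envelope and secreted or calcium-binding proteins of suprabasal epithelial cells. They are 9 genes, namely *Eppk1*, *Scel*, *Ppl*, *Evpl*, *Krtdap*, *Calm4*, *Calml3*, *Sbsn* and *Dmkn*. They were selected by name from what these same arrays had already shown, and every probe that carries 1 of the names and is not a control was taken. Their values are therefore a description with no test. The 9 genes have 12 of the 55679 probes. All 9 were among the 13803 genes well above background on both arrays, of 21244 with a probe matched to a reference symbol.

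RNA of the incisor was compared between wild-type (WT) mice and mice lacking *Sox21*, a transcription factor gene of the Sox family (*Sox21* KO), with 1 array for each genotype. Per the labels both samples were taken at postnatal day 0, whereas the study's methods give day 1, and the design text names ameloblasts as well as whole tooth germs. The WT mice were C57BL/6J, and the strain of the KO allele and the number of animals behind each RNA are not given in the sources used here. Both arrays were read in 1 colour, and each processed signal was divided by the 75th percentile of its array, 268 for WT and 276 for *Sox21* KO, to give a normalized signal. A log2 ratio above 0 stands for a higher signal in *Sox21* KO. No difference could be checked against replicates, since each genotype has 1 array, and this number limits the precision. The errors given for single probes are those of the scanner software and cover the spot only. No spot was saturated (0 on both arrays), and 49.7% of the WT and 50.4% of the KO spots, controls left out, were well above background. The targeted gene *Sox21* had a normalized signal of 5.09 on the WT array and 2.39 on the KO array at 1 probe, and of 1.07 and 0.375 at another. Both *Sox21* probes were lower on the KO array but stayed well above background there, and whether they lie in the deleted part is not given in the sources used here. All 7 ameloblast markers were well above background on both arrays, among them *Amelx*, the gene of the main enamel matrix protein, with normalized signals of 1472 and 1554.

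Cornified cells of stratified epithelia replace their plasma membrane by an envelope of crosslinked proteins. Periplakin and envoplakin, encoded by *Ppl* and *Evpl*, are plakins that form a heterodimer under the membrane and serve as its early scaffold, to which sciellin (*Scel*) and other precursors are joined by transglutaminases. Epiplakin (*Eppk1*) is a plakin made of plakin repeats that binds keratin filaments. *Calm4* and *Calml3* encode calcium-binding proteins of the calmodulin family that are found in differentiating keratinocytes. *Krtdap*, *Sbsn* and *Dmkn* encode secreted proteins of the suprabasal layers, and they lie side by side on chromosome 7. Ameloblasts, the enamel-forming cells of the tooth, are epithelial cells that do not cornify.

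The promoters of the chromosome 7 genes, of *Scel* and of *Calm4* are shown because these are the members for which the RefSeq promoter table (GRCm38.p6) holds a sequence. It holds 7 start sites of 5 of the 9 genes, and all lie on the plus strand. Each window runs from 120 bases before the annotated start to 10 bases after it. Capitals mark TGANTCA, a pattern wider than the AP-1 motif, which has G or C as its middle base. Of the start sites of *Dmkn*, the upstream and the downstream one are shown, and the remaining one lies 2 bases from the first.
Krtdap, chr7:30787785-30787914: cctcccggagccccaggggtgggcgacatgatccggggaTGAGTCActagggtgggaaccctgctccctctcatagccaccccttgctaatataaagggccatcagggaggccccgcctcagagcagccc
Sbsn, chr7:30751351-30751480: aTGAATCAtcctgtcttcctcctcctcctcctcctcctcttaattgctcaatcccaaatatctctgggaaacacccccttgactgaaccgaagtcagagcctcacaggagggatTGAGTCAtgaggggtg
Dmkn upstream start, chr7:30763636-30763765: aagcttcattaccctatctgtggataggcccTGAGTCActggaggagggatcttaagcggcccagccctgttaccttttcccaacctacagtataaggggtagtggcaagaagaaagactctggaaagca
Dmkn downstream start, chr7:30776285-30776414: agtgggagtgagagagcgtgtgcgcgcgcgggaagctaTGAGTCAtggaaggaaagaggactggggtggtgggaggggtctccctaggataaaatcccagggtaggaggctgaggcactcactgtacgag
Scel, chr14:103513221-103513350: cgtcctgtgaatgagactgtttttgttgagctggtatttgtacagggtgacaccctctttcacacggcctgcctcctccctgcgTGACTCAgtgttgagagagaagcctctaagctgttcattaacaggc
Calm4, chr13:3837637-3837766: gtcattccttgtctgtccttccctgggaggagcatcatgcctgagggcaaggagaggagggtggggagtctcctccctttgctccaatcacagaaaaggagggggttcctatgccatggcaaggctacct

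In the full windows of 300 bases, TGANTCA, which reads the same on both strands, was found for 4 of the 5 genes and in 6 of the 7 windows, against 7.81% of the 32851 promoters of the table. The match began 81 bases before the start of *Krtdap*, 36 bases before that of *Scel* and 89 and 82 bases before the shown starts of *Dmkn*. *Sbsn* had a match that began 6 bases before its start and another 119 bases before it, the latter with A as its middle base and thus outside the AP-1 motif. *Calm4*, which had the highest log2 ratio of the 9 genes, had no match in its window. ACAAT, a core of Sox binding motifs, was searched with its reverse ATTGT and was found for *Dmkn* and *Scel*, hence in 4 of the 7 windows, against 31.0% of all promoters. TATAAA, the TATA box, was searched with its reverse TTTATA and was found only for *Krtdap*, 30 bases before the start, and in 13.6% of all promoters. The motifs were chosen with these promoters in view, the *Dmkn* windows partly overlap, and a match is not evidence of binding.

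Of the 9 genes, 8 had a higher normalized signal in *Sox21* KO incisor and 1, *Evpl*, a lower one, whereas 52.4% of all measured genes were above 0 in log2 ratio. At least 2-fold higher were 5 of the 9, against 0.739% of all measured genes, and 0 were at least 2-fold lower, against 0.667%. At 1.5-fold these numbers stayed at 5 and 0, against 3.19% and 2.98%. At the level of probes, 7 of the 12 were at least 2-fold higher, against 0.632%. Because the genes were selected on this contrast, nothing further is read from these shares. The 9 genes had a median log2 ratio of 1.18, beside 0.01 over all measured genes. In order, the log2 ratio was 1.82 for *Calm4*, 1.44 for *Scel*, 1.29 for *Eppk1*, 1.24 for *Calml3* and 1.18 for *Krtdap*, and then 0.43 for *Ppl*, 0.35 for *Dmkn*, 0.34 for *Sbsn* and -0.19 for *Evpl*. Neighbours in this order were apart by more than their combined scanner error between *Calm4* and *Scel*, between *Krtdap* and *Ppl* and between *Sbsn* and *Evpl*, and by less elsewhere. That error holds no spread between animals, so the order is a description of these arrays. In bulk tissue, fewer cells of a type and less RNA per cell cannot be told apart.

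**Figure D1:**
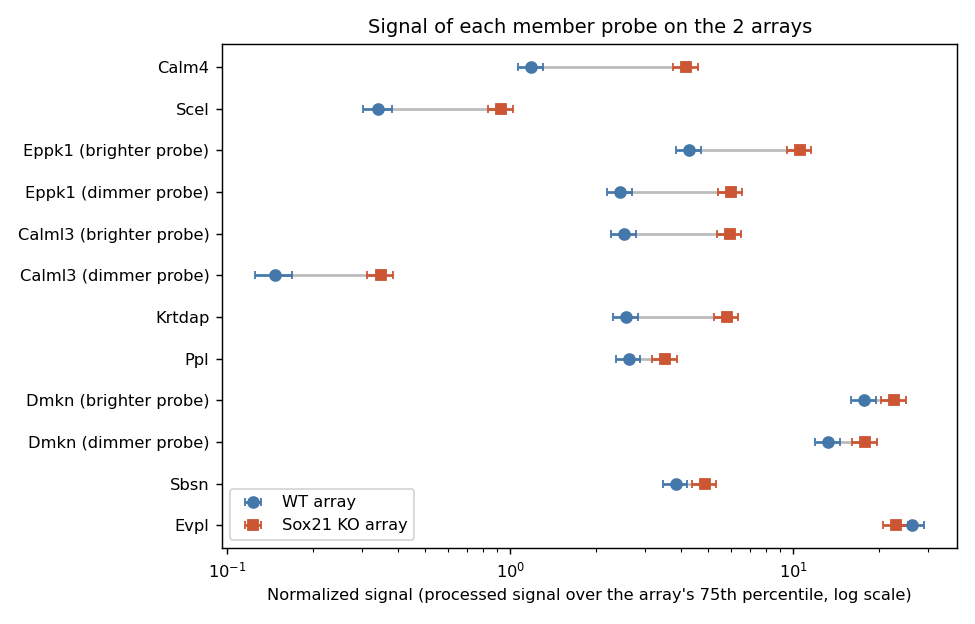
Normalized signal (log axis) of each of the 12 probes on the WT array (circles) and the Sox21 KO array (squares), with the scanner error as bars and 1 array per genotype. The pairs stand widest apart from Calm4 to Krtdap, are close for Ppl, Dmkn and Sbsn, and are in the opposite order for Evpl alone.

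Among the scaffold genes, the plakins had ratios on both sides of 0. *Eppk1* had a processed signal of 1149 ± 115 (scanner error) on the WT array and 2898 ± 290 on the KO array at its brighter probe, and a log2 ratio of 1.29 ± 0.20. Its dimmer probe had 653 ± 65.5 and 1654 ± 165, and a log2 ratio of 1.30 ± 0.20. The *Eppk1* probes lie at chr15:75931936-75931995 and chr15:75931912-75931971 (mm9) and share 36 bases, so they are not independent readings of the transcript. *Ppl* had 701 ± 70.2 and 973 ± 97.4, a log2 ratio of 0.43 ± 0.20. *Evpl*, whose protein pairs with that of *Ppl*, had 7046 ± 705 and 6339.9 ± 634, a log2 ratio of -0.19 ± 0.20 that did not exceed its scanner error. The partners of this heterodimer were thus on opposite sides of 0, each within 1.5-fold of the WT array.

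*Scel*, which encodes the envelope precursor sciellin, had processed signals of 91.4 ± 10.7 and 255 ± 26.1 and a log2 ratio of 1.44 ± 0.22. The KO array was thus 2.72-fold higher, and both signals were above the lowest that counted as well above background, 21.3 for WT and 19.5 for KO. With a normal-exponential model of the background in place of the scanner's own subtraction and an offset of 50 added to each signal, the log2 ratio of *Scel* was 0.93, below 2-fold. It was 1.25 with the model alone and 1.08 with the offset alone. *Scel* lies on chromosome 14, as *Sox21* does, at a distance of 14.6 Mb (GRCm38.p6).

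The calmodulin-like genes were both past 2-fold. *Calm4* had processed signals of 316 ± 32.1 and 1151 ± 115, a 3.54-fold difference and a log2 ratio of 1.82 ± 0.21. Of all measured genes, 13 had a higher ratio than *Calm4*. *Calml3* had 675 ± 67.7 and 1639 ± 164 at the brighter probe, a log2 ratio of 1.24 ± 0.20. Its dimmer probe had 39.5 ± 5.89 and 95.9 ± 10.4, with a log2 ratio of 1.24 ± 0.27. The *Calml3* probes share no base and lie 765 bases apart on chromosome 13 (mm9), so that different parts of the transcript gave the same ratio. For comparison, the median difference between probes was 0.16 over the 2968 genes with 2 measured probes. The dimmer *Calml3* probe moved most among the members' probes over the alternatives, to a log2 ratio of 0.56 with the normal-exponential model and the offset, 0.88 with the model alone and 0.67 with the offset alone.

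The dimmer *Calml3* probe and the *Krtdap* probe are shown because the former is the second reading of *Calml3* and the latter bridges a gap in the genome, with 60 bases placed over 229 bases of chromosome 7 (mm9). Of the 3 forward reading frames, 1 was free of stop codons in each of them.
Calml3 probe, chr13:3803002-3803061: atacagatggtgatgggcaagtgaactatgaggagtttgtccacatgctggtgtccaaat
Krtdap probe, chr7:31574534-31574762: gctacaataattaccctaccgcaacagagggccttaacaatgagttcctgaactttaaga

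Of the genes of secreted proteins, 1 was past 2-fold and 2 were not. *Krtdap*, the keratinocyte differentiation-associated protein gene, had processed signals of 687 ± 68.9 and 1601 ± 160, a log2 ratio of 1.18 ± 0.20. *Sbsn*, which encodes suprabasin, had 1027 ± 103 and 1339 ± 134, a log2 ratio of 0.34 ± 0.20. *Dmkn*, which encodes dermokine, had 4773 ± 477 and 6244 ± 624 at the brighter probe, a log2 ratio of 0.35 ± 0.20. The dimmer *Dmkn* probe had 3552 ± 355 and 4929 ± 493, a log2 ratio of 0.43 ± 0.20. The *Dmkn* probes share 55 of their 60 bases, both hold the polyadenylation signal AATAAA, and they read the same end of the transcript. *Krtdap* was thus 2.26-fold higher, whereas its neighbours *Dmkn* and *Sbsn* were 1.27-fold higher each. Relative to the median of the epithelium markers, *Krtdap* had a log2 ratio of 0.98, just under 2-fold.

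**Figure D2:**
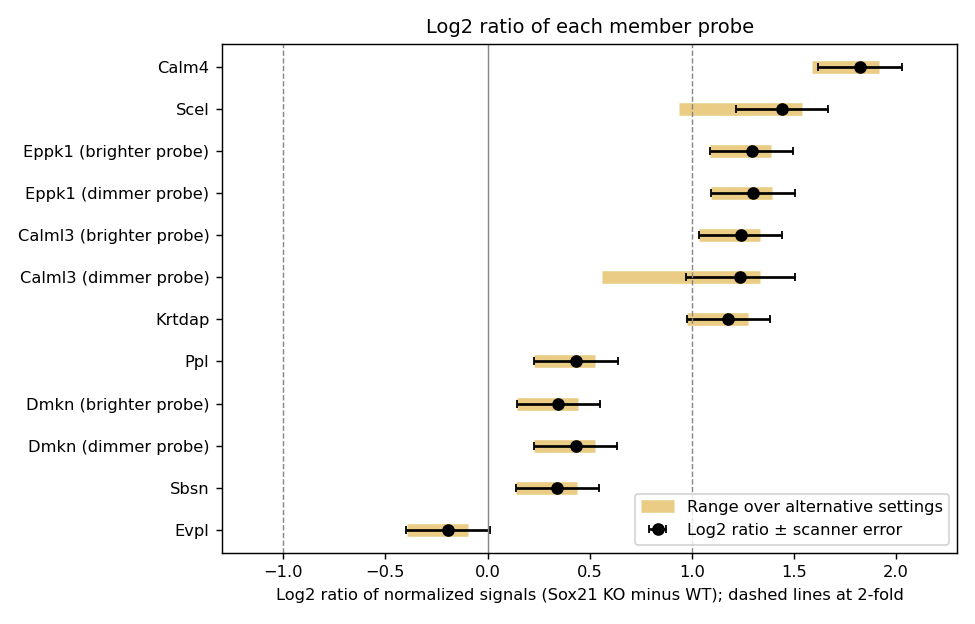
Log2 ratio (Sox21 KO minus WT) of each probe, with the scanner error as bars and the range over the alternative settings as bands, and dashed lines at 2-fold. All probes of Calm4, Eppk1 and the brighter probe of Calml3 keep their bands above 2-fold, whereas the bands of Scel, Krtdap and the dimmer Calml3 probe reach below it.

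Set against all measured genes, the 5 members past 2-fold lay in the tail of the distribution and the other 4 did not. A higher log2 ratio was seen in 34 genes for *Scel*, 47 for *Eppk1*, 56 for *Calml3* and 65 for *Krtdap*. For *Ppl* the number was 846, for *Dmkn* 1276 and for *Sbsn* 1309, and *Evpl* had 2526 genes below it. *Eppk1*, *Scel* and *Calm4* are also among the genes that the study lists from these arrays, which is not independent evidence of their direction. The split of all measured genes depended on the scaling, with 102 genes at least 2-fold higher and 92 lower here, 135 and 63 after scaling to the median of all spots, and 61 and 183 relative to the epithelium markers.

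**Figure D3:**
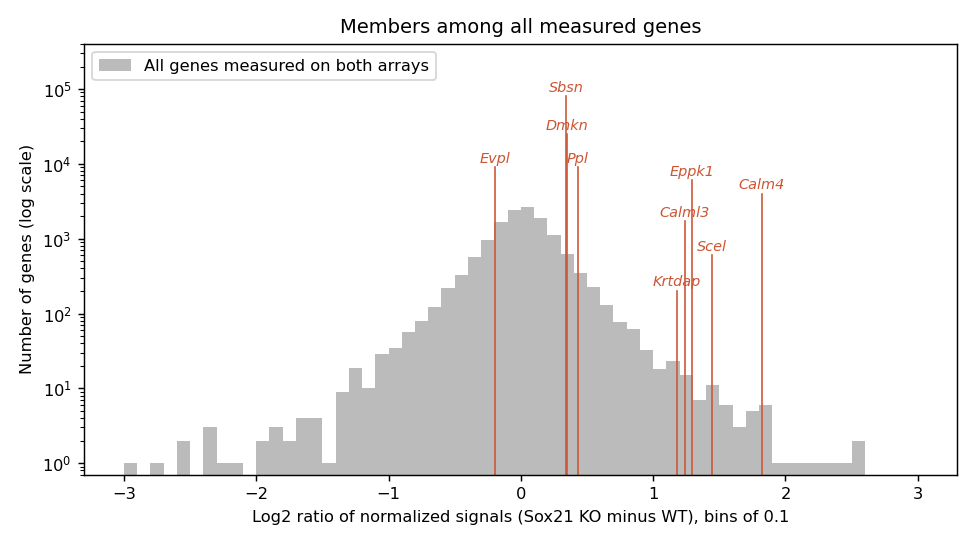
Number of genes (log axis) by log2 ratio (Sox21 KO minus WT) in bins of 0.1, over the 13803 genes measured on both arrays, with lines at the 9 members. Calm4, Scel, Eppk1, Calml3 and Krtdap stand in the right tail past 1, and Sbsn, Dmkn, Ppl and Evpl stand within the bulk of the genes.

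The other genes of these families were set beside the members. Of 20 other cornified envelope genes, 12 could be measured in both genotypes, 10 of them with a log2 ratio above 0 and 2 below, and their median was 0.65. At least 2-fold higher were 3 of the 12, the proline-rich precursor gene *Sprr3* with a log2 ratio of 1.59, *Lor*, which encodes the bulk envelope protein loricrin, with 1.15, and *Cdsn*, of the corneodesmosome, with 1.08. *Sprr3* and *Cdsn* were dim, with normalized signals of 0.104 and 0.207 on the WT array, below the 0.341 of *Scel*. On the KO array they had 0.311 and 0.439. Their ratios were not computed again with the other background settings. Not well above background on the WT array were *Flg*, the filaggrin gene, and *Sprr1b*. The KO signal of *Sprr1b* was higher by at least 4.91-fold. That of *Flg* was 5.18-fold its own dim WT signal, which is a plain quotient and not a lower bound. Neither array measured 6 genes of the list, among them *Ivl*, the involucrin gene, for which no ratio is given. The lowest of the list was *S100a10*, with -0.12. The transglutaminases that crosslink these proteins had log2 ratios of 0.28 for *Tgm1* and -0.07 for *Tgm3*. The summed normalized signal of the list went from 191 to 241 and was carried by its brightest genes. *Pkp1* had 55.5 and 65.0, *Anxa1* 44.3 and 67.9 and *Dsp* 21.6 and 34.8. *S100a10* had 33.2 and 30.4 and *S100a11* 27.0 and 27.5, whereas *Lor* had only 3.06 and 6.80.

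Among the other plakins, 0 of 4 were 2-fold apart, and their median was 0.12. *Dsp*, which encodes the desmosomal anchor desmoplakin, was the highest with a log2 ratio of 0.69, and *Dst*, of the hemidesmosome, the lowest with -0.12, or -0.66 at another probe. Among the other calmodulin family genes, the log2 ratio was -0.11 for *Calm2* and -0.30 for *Calm3*, both of which encode calmodulin itself, although another probe of *Calm3* gave 0.02. The highest of the list was *Calml4*, with 0.85, and 0 of its measured genes were 2-fold apart. *Calm5*, which lies next to *Calm4*, was not well above background in either genotype.

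Markers of other stratified epithelia were set beside the members. Of 7 suprabasal skin markers, 5 were measured, 4 with a log2 ratio above 0 and 1 below, their median was 0.34, and the list's summed normalized signal went from 6.53 to 12.3. Past 2-fold were *Krt1*, the type II keratin of suprabasal epidermis, with a log2 ratio of 1.45, and *Lor*, whose own normalized signal went from 3.06 to 6.80, whereas *Krt2* had 0.16 and *Casp14* was the lowest with -0.25. *Krt10* had 0.34 at its brighter probe and 1.84 at the other. Of 6 oral mucosa markers, 4 were measured and all 4 were higher, with a median of 1.02, and the summed signal went from 17.4 to 31.2. *Krt4*, a keratin of mucosal epithelium, was not well above background on the WT array, and its KO signal was higher by at least 7.81-fold. In this list *Krt6a* and *Sprr3* passed 2-fold, with log2 ratios of 1.28 and 1.59, and *Krt13* was the lowest with 0.56, although its other probe gave 1.94. *Sprr3* was dim on both arrays, as given above. Not well above background on either array were *Krt77* of the skin list and *Krt76* of the mucosa list. The lists share *Lor*, *Flg* and *Sprr3* with the envelope list. The summed signal of the members went from 61.5 to 81.4. The part of skin or oral mucosa in the members' ratios was not tested.

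The epithelium at large moved less. Its 8 markers had a median log2 ratio of 0.20, with *Krt18* the highest at 0.92 and *Cdh1* the lowest at -0.09 by the brightest probe of each gene, and a summed signal of 880.0 and 965. Other probes of this list gave -0.68 and 0.02 for *Trp63*, 0.59 for *Krt5* and 0.34 for *Krt8*. The 7 ameloblast markers had a median of -0.62, with *Amtn* at -1.89 and *Klk4* at -1.05 past 2-fold and *Odam* the highest at 0.63, and their summed signal went from 3162 to 2866. Of 7 hair markers, 5 were measured, with *Krt32* at 2.40 and *Foxn1* at 1.13 past 2-fold and *Krt27* the lowest at -0.60. *Krt32* and *Foxn1* were dim, with normalized signals of 0.113 and 0.110 on the WT array and 0.597 and 0.241 on the KO array. *Krt71*, of the inner root sheath, was well above background on the WT array alone and was lower in KO by at least 2.34-fold, and *Krt25* was measured on neither array. The median of the hair list was 0.57, with 3 genes above 0 and 2 below, and its summed signal was 8.55 and 7.45, of which *Krt27* had 5.81 and 3.82.

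Of the markers of tissues under the epithelium, 0 were 2-fold apart. The median log2 ratio was 0.22 for mesenchyme, between *Col3a1* at -0.12 and *Vim* at 0.29, and 0.42 for odontoblasts, between *Dspp* at -0.01, or 0.28 at another probe, and *Dmp1* at 0.93. It was 0.13 for bone, between *Runx2* at -0.10, or 0.24 at another probe, and *Spp1* at 0.82. For skeletal muscle it was -0.59, between *Ckm* at -0.71 and *Myh3* at 0.64, and for blood -0.18, between *Hba-a1* at -0.36 and *Alas2* at -0.10. *Mylpf* of muscle was not well above background in either genotype. The summed normalized signals of WT and KO were 1541 and 1729.8 for mesenchyme, 119 and 122 for odontoblasts and 101 and 151 for bone. They were 58.1 and 40.5 for skeletal muscle and 242 and 198 for blood. The part of these tissues in the members' ratios was not tested.

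**Figure D4:**
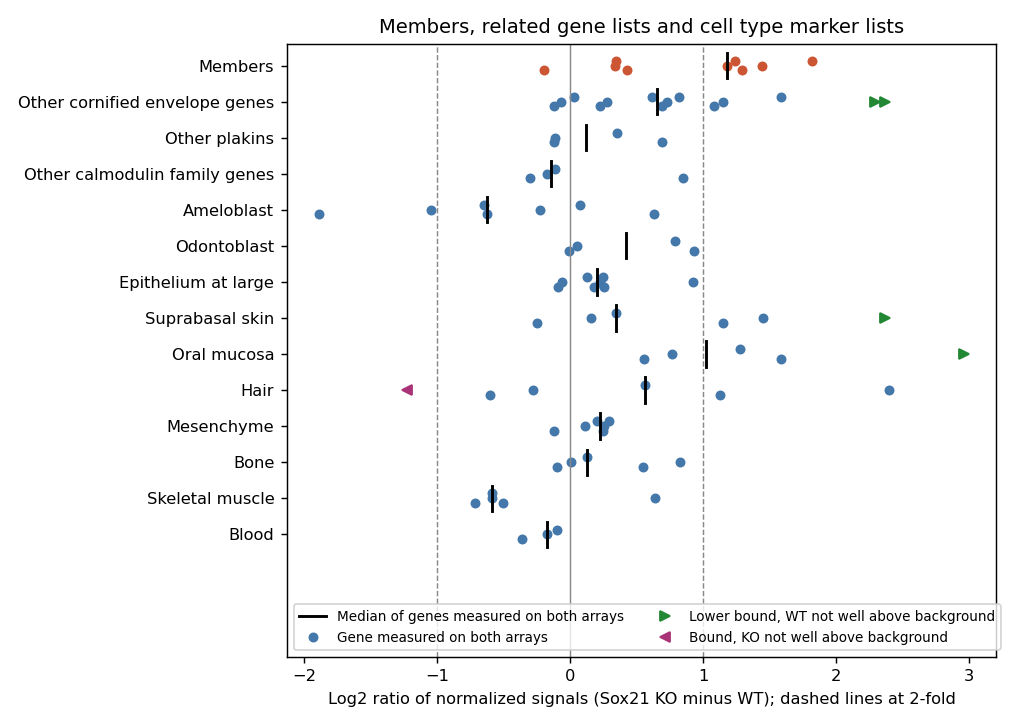
Log2 ratio (Sox21 KO minus WT) of each gene measured on both arrays, by list, with the list's median as a black bar, bounds for genes on 1 array alone as triangles, and dashed lines at 2-fold. The triangles of Flg stand for the quotient of its own signals and are not bounds. The members (median 1.18) and the oral mucosa markers (median 1.02) stand highest, and the ameloblast (median -0.62) and skeletal muscle markers (median -0.59) lowest.

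The genes next to the members on the chromosomes had ratios near 0. Of 24 protein-coding neighbours, 2 on each side in the RefSeq order of GRCm38.p6 and without the members themselves, 18 were measured on both arrays, 5 on neither, and *Slain1*, next to *Scel*, on the KO array alone, with no fold given. Their median log2 ratio was -0.08, with 6 higher, 12 lower and 0 past 2-fold. The highest was *Plec*, which encodes the plakin plectin and lies 50.8 kb from *Eppk1*, with 0.35, and the lowest was *Tasor2*, near *Calml3*, with -0.44, although another probe of it gave 0.03. *Calml3* and *Calm4* lie 33.4 kb apart on chromosome 13, and the genes on either side of the pair that could be measured, *Asb13* and *Net1*, had log2 ratios of -0.01 and 0.21. *Net1* had another probe at 0.81. On chromosome 7, *Tmem147* had -0.22 and *Ffar3* -0.04, outside the row of *Sbsn*, *Dmkn* and *Krtdap*. *Mycbp2* and *Ednrb*, on either side of *Scel*, had 0.03 and -0.13, and another probe of *Ednrb* gave 0.49. *Ubn1*, which ends 0.002 kb from *Ppl*, had -0.10.

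**Figure D5:**
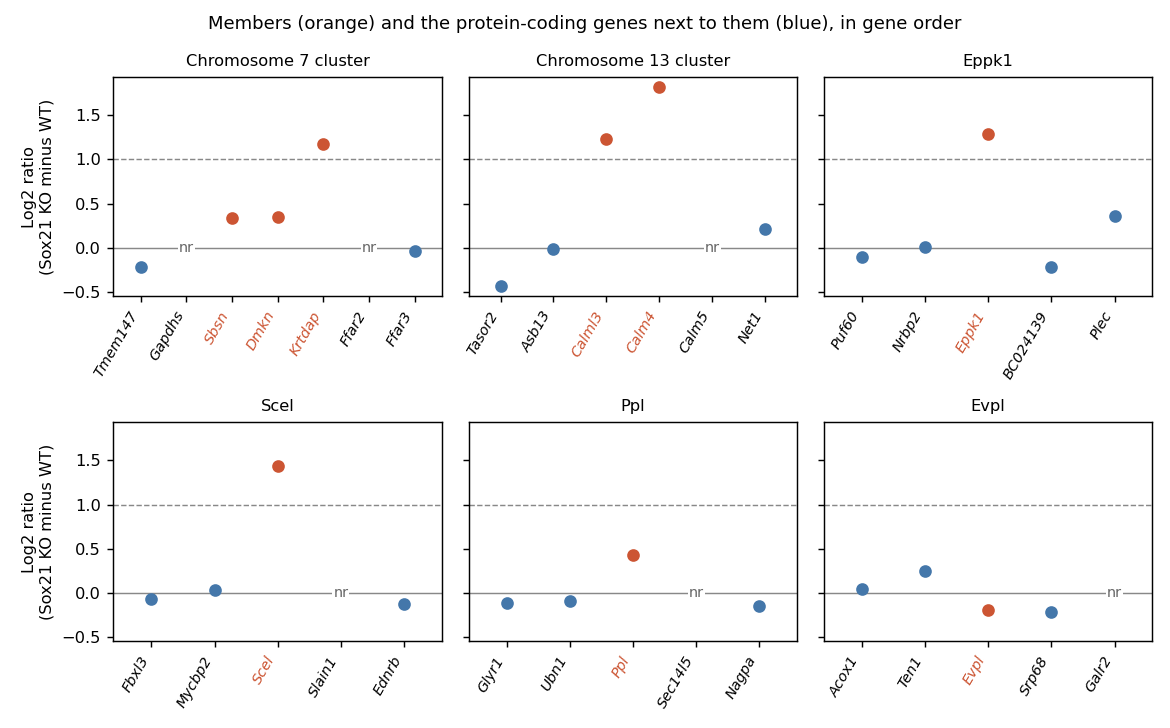
Log2 ratio (Sox21 KO minus WT) of the members (orange) and of the 2 protein-coding genes on each side (blue), in gene order along each chromosome, with a dashed line at 2-fold and "nr" for genes given no ratio. Members stand above their neighbours in each panel except that of Evpl, and the neighbours lie between -0.44 and 0.35.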

How the data were processed

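One-colour Agilent SurePrint G3 mouse arrays were hybridized with RNA of WT and *Sox21* KO incisor, with 1 array per genotype. The authors deposited, for each spot, the background-subtracted processed intensity of Agilent Feature Extraction 10.7.3.1 and its error, together with its raw mean intensity and that of the surface around it. A second deposited table holds ratios, namely the processed signals over a constant of each array, with a largest relative difference of 1.37e-06 between spots. The study's methods name a percentile shift in GeneSpring and a filter on very low signals.

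Each processed signal was divided here by the 75th percentile of all 62976 spots of its array, and its log2 was averaged over the spots of a probe. Left out were 267 spots marked as outliers. Reference symbols came from RefSeq (GRCm38.p6), through the accession for 26298 probes, the symbol for 2044 and a former symbol for 355. The remaining 26982 probes matched no reference symbol. They were left out of the gene counts, shares and ranks, and stayed in the scaling and the probe counts. Each gene was represented by the brightest of its probes that were well above background in both genotypes. A gene well above background on 1 array alone was given a bound, against the higher of its own dim signal and the lowest signal well above background on that array. Where its own dim signal was the higher, as for *Flg*, the value is a plain quotient and not a bound. No test was run, because each genotype has 1 array. Named were all members, *Sox21*, the genes of each fixed list that were at least 2-fold apart, on 1 array alone or at the ends of the list, and the 2 protein-coding neighbours on each side of a member. Genes outside this rule were named to complete a list of few genes or because they held much of a summed signal. Some genes of the lists are not reported here. The members and lists were chosen with earlier results of these data known. The calling of genes past 2-fold was tested on simulated arrays with larger planted changes and noise in proportion to the signal. Dim signals and the background correction were not tested in this way. Alternatives concerned the threshold, the choice of probe, the filter, the scaling and the background model. The software was limma 3.58.1 in R 4.3.3, and pandas 2.3.3 and numpy 2.4.6 in Python 3.11.15.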

Additional observations from a re-analysis of the deposited data

How the results depend on the processing

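The log2 ratios of the members' probes, the counts of members past 2-fold and their median were computed again with the choices changed singly, except that the planned normal-exponential background correction also added an offset of 50 to each signal. The threshold, the choice of probe and the filter were varied for the counts and the median alone, and the other lists and the neighbours were not computed again. Of the 9 genes, 4 or 5 reached 2-fold in the direction of *Sox21* KO and 0 were at least 2-fold lower under every alternative that was run. The count of 4 arose under the normal-exponential correction with its offset, where *Scel* had a log2 ratio of 0.93, and relative to the epithelium list, where *Krtdap* had 0.98. The members' median log2 ratio was 1.28 after scaling to the median of all spots, 0.93 under the normal-exponential correction with its offset and 0.98 relative to the epithelium list, against 1.18 in the main setting. With the correction alone and the offset alone, the count was 5 each time, *Scel* had 1.25 and 1.08, and the median of the members was 1.11 and 1.08. These separate settings and the scaling to the epithelium list were added after seeing the data. Scaling to the median of all spots put the median of all measured genes at 0.11, and scaling to the epithelium list put it at -0.19. The numbers of all measured genes at least 2-fold higher and lower, 102 and 92 in the main setting, became 135 and 63 after the median scaling, 46 and 40 under the normal-exponential correction with its offset, 76 and 68 with the correction alone, 49 and 40 with the offset alone and 61 and 183 relative to the epithelium list. Of 108 log2 ratios of single probes under these alternatives, 0 changed sign and 36 moved by more than 0.0862, the median SD between repeat spots. The requirement on background and the bounds changed nothing here, since all 9 genes were well above background on both arrays. No paired analysis was possible because each genotype has 1 array. The number of arrays limits the precision, and the error of the scanner software covers the spot and not the animal.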
